A study of Mus musculus with 12 samples.

Results

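The collagen genes are the 44 genes whose symbols in both count tables consist of Col, a type number, the letter a and a chain number, out of 23420 genes listed. Each such gene encodes 1 collagen alpha chain. By the collagen they form, 11 are fibrillar, 6 encode type IV of basement membranes, 9 are FACITs (chains with interrupted triple helices that sit on fibril surfaces), 4 are transmembrane, 6 encode type VI of beaded filaments, 3 encode the short-chain networks of types VIII and X, 2 are multiplexins and 3 belong to none of these classes. Levels were measured by sequencing polyadenylated RNA from whole mouse embryos at E12.5, with 3 embryos in each of 4 groups and 1 library per embryo. In the *Carm1* line, on C57BL/6, embryos homozygous for the KO allele Carm1tm1Mtb, a deletion of exons 2 and 3 of the arginine methyltransferase gene *Carm1*, were compared with wild-type embryos. In the *Pax3* line, a closed colony of mixed background, embryos homozygous for the Splotch allele Pax3Sp2H, a null mutation of the neural crest and muscle progenitor transcription factor *Pax3*, were compared with wild-type embryos of that line. Both mutants are constitutive and came from matings of heterozygous parents, the lines share no library, and differences between the lines cannot be told apart from differences in strain and colony. *P* values measure the spread between embryos of a group. The study compared these mutants because their heart defects are alike and PAX3 protein is a candidate target of CARM1.

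Collagen chains fold in triple helices in the endoplasmic reticulum and are secreted. Fibrillar types I, III and V build the fibrils of loose connective tissue, skin, tendon and bone, whereas types II, IX and XI build those of cartilage, which at midgestation is forming in limb buds, vertebrae, ribs and the base of the skull. Type IV forms the sheet that underlies every epithelium and endothelium, and the multiplexin *Col18a1* adds a chain to that sheet whose C-terminal fragment is endostatin.

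Total counts per library ranged from 17183344 to 23518692, and all values below are CPM, counts per 1e6 counts of the library, after TMM scaling unless stated otherwise. Collagen genes took 0.790% to 0.953% of the counts in the *Carm1* line and 0.544% to 0.685% in the *Pax3* line. The labels were checked on the mutated genes. *Carm1* had 71.2, 69.2 and 76.1 CPM in mutant and 150.6, 145.4 and 136.8 CPM in wild-type embryos, and *Pax3* had 22.4, 22.0 and 18.1 CPM in mutant and 30.9, 24.95 and 28.3 CPM in wild-type embryos, with no overlap in either case. Within the wild-type groups single libraries stood apart: replicate 1 was the highest of the 3 for 37 of 44 collagen genes in the *Carm1* line, and replicate 3 was the lowest of the 3 for 38 of 44 in the *Pax3* line. Y-linked genes were counted in *Carm1* wild-type replicate 3 and in *Pax3* Sp2H/Sp2H replicate 3 and *Pax3* wild-type replicates 2 and 3.

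Levels were first compared between genes in wild-type embryos, as CPM per kb of exon. The fibrillar collagens of loose connective tissue led in both lines. *Col3a1* had 172.7 ± 11.5 CPM per kb in the *Carm1* line and 113.5 ± 14.7 in the *Pax3* line (SD, n = 3 each), *Col1a1* had 148.1 ± 18.8 and 87.4 ± 15.8, and *Col1a2* had 98.8 ± 7.38 and 78.6 ± 9.99. The lowest *Col3a1* library lay within the range of *Col1a1* in both lines, although *Col3a1* exceeded *Col1a1* within each of the 12 libraries. Next came *Col2a1* of cartilage, with 64.2 ± 8.95 CPM per kb in the *Carm1* line and 53.6 ± 8.53 in the *Pax3* line, and *Col4a1* of basement membranes, with 60.4 ± 4.96 and 58.9 ± 7.58, again within each other's ranges. The ranges of *Col1a1* and *Col1a2* overlapped as well in the *Pax3* line.

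Other classes were led by *Col9a2* among FACITs, *Col6a1* in type VI, *Col18a1* among multiplexins, *Col23a1* among transmembrane collagens, *Col8a2* in the short-chain networks and *Col26a1* among the rest, each between 12.8 and 41.0 CPM per kb in wild-type embryos of the *Carm1* line. At the other end were *Col4a3* and *Col4a4*, chains of the mature glomerular basement membrane, and *Col10a1*, the collagen of hypertrophic cartilage. *Col10a1* had 1 to 9 counts in any library and *Col4a3* 3 to 21. *Col10a1* was therefore not tested in either line and *Col4a3* was tested in the *Carm1* line alone, which left 43 collagen genes tested in the *Carm1* line, 42 in the *Pax3* line and 42 in both.

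**Figure D1:**
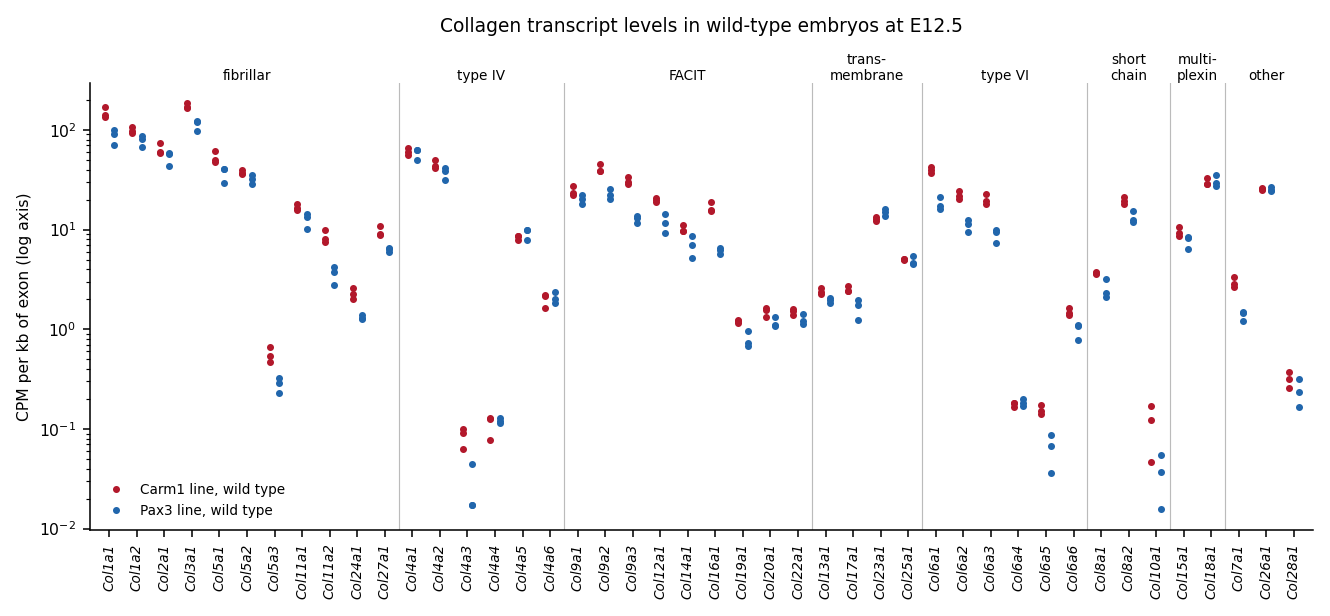
CPM per kb of exon (log axis) of the 44 collagen genes in wild-type embryos, 1 point per library, with the *Carm1* line in red and the *Pax3* line in blue and genes grouped by class. *Col3a1*, *Col1a1* and *Col1a2* lie highest in both lines, and *Col4a3*, *Col4a4*, *Col10a1*, *Col6a4* and *Col6a5* have the 5 lowest means in both.

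The members also differ in gene structure along the same classes. Fibrillar collagens are known for exons of 54 nt, which encode 6 repeats of the triplet glycine, X, Y. In the GENCODE models of GRCm38, 41.2% to 55.0% of the coding exons of the 11 fibrillar genes had exactly 54 nt, for example 21 of 51 in *Col1a1*, 24 of 54 in *Col2a1* and 31 of 66 in *Col11a2*. In type IV genes the share was 2.13% to 5.66%, as in *Col4a1* with 2 of 52. FACITs spanned both kinds, from 6.15% to 44.4%, and *Col10a1*, *Col8a1* and *Col8a2* have 2 coding exons each, none of 54 nt. Collagen transcripts are long and rich in G and C: the 43 tested in the *Carm1* line had a median exon length of 7621 nt and a median GC content of 55.2%, against 4326 nt and 50% for all genes tested with a model.

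Most collagen genes called in *Carm1* KO/KO embryos were lower: 4 of 11 fibrillar, 6 of 9 FACIT, 4 of 6 type VI, 1 of 4 transmembrane and 1 of 2 short-chain genes tested. Those called higher were 3 of 6 type IV genes and *Col18a1*. At an adjusted *P* below 0.05 in edgeR's quasi-likelihood test, 20 of the 43 tested (46.5%) differed, against 13.3% of all 15811 genes tested. Of these 20, 16 fell (background of lower genes 7.83%) and 4 rose (background of higher genes 5.49%). The median log2 fold change of the 43 genes was -0.16, against 0.0014 over all genes. The ranges of mutant and wild-type libraries were apart in 26 of them (60.5%), 21 lower and 5 higher, where 30.0% of all genes did not overlap (15.7% lower and 14.2% higher). RNA was taken from whole embryos, so that fewer cells of a type and less RNA per cell cannot be told apart.

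In *Pax3* Sp2H/Sp2H embryos fewer collagen genes differed, and most of them were higher. The share called was below that of all genes, and the share called higher was near the background of higher genes. Of the 42 tested, 8 (19.0%) passed the same edgeR threshold, against 24.5% of all 15724 genes tested. The 7 that rose (16.7% of the collagen genes, background 14.0%) were *Col9a1*, *Col9a2*, *Col9a3*, *Col11a2*, *Col27a1*, *Col13a1* and *Col7a1*, and the 1 that fell (background 10.5%) was *Col19a1*. The median log2 fold change was -0.0033, against -0.0026 over all genes. Groups did not overlap in 9 of the 42 genes (21.4%), 8 higher and 1 lower, where 39.6% of all genes did not overlap (20.7% higher and 18.9% lower).

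Both counts depended on the libraries in the fit. When all 12 libraries shared 1 estimate of the spread, 7 collagen genes were called in the *Carm1* line, all lower and all among the 20 (*Col1a2*, *Col6a6*, *Col8a1*, *Col9a1*, *Col9a3*, *Col16a1* and *Col17a1*), with fold changes nearly as before. Without *Pax3* wild-type replicate 3, the library with the smallest collagen share of counts, 15 were called in the *Pax3* line, the 8 named above and 7 more that were all lower.

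**Figure D2:**
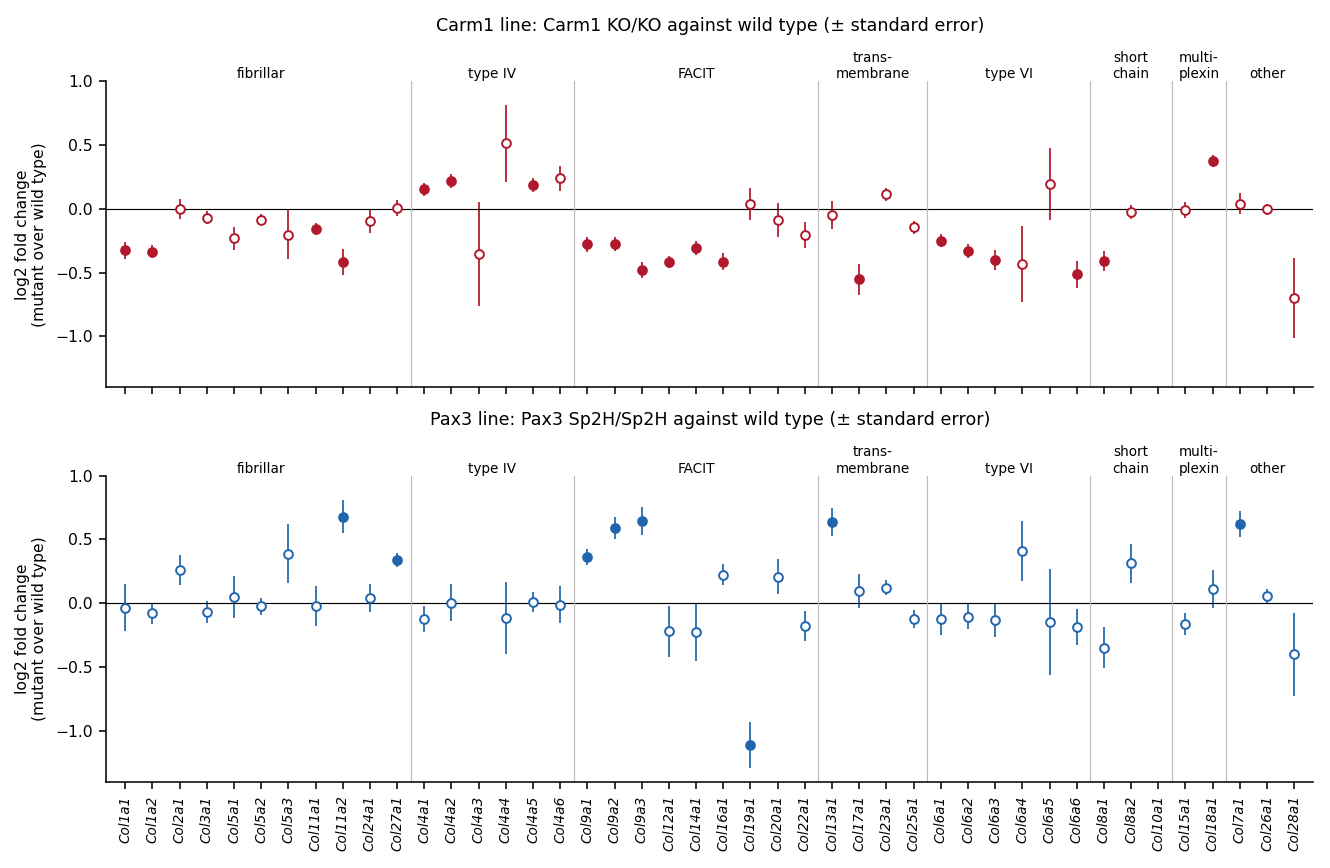
Log2 fold change of each collagen gene tested (mutant over wild type, y axis; error bars, standard error; n = 3 libraries per group) by class, in the *Carm1* line (top) and the *Pax3* line (bottom). Filled points passed an adjusted *P* of 0.05 in edgeR. In the top panel filled points of the fibrillar, FACIT and type VI classes lie below 0 and those of type IV and *Col18a1* above it, and in the bottom panel *Col19a1* is the lowest filled point.

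Among the fibrillar genes of the *Carm1* line, both chains of type I, the main fibril of skin, tendon and bone, fell. *Col1a1* had 762.1, 786.1 and 780.2 CPM in mutant and 1113, 919.5 and 883.6 CPM in wild-type embryos, a log2 fold change of -0.32 (standard error 0.067, adjusted *P* = 0.00346). *Col1a2* had 950.2, 990.9 and 972.5 CPM in mutant and 1330, 1198 and 1154 CPM in wild-type embryos, a log2 fold change of -0.34 (standard error 0.051, adjusted *P* = 1.53e-05). Every mutant library lay below every wild-type library for both chains. In the fit of all 12 libraries *Col1a2* kept its call (adjusted *P* = 0.00402) and *Col1a1* did not (0.265).

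*Col3a1*, the type III chain that shares fibrils with type I in skin and vessel walls, had 1584, 1649 and 1615 CPM in mutant and 1824, 1652 and 1610 CPM in wild-type embryos. These groups overlapped, and the log2 fold change of -0.07 (standard error 0.050, adjusted *P* = 0.416) did not pass the test. Per kb, the ratio of *Col3a1* to *Col1a1* was 1.38 to 1.40 in the mutant libraries and 1.1 to 1.22 in the wild-type libraries. The type V chains *Col5a1* and *Col5a2*, which set fibril diameter, had log2 fold changes of -0.23 (adjusted *P* = 0.163) and -0.08 (adjusted *P* = 0.230). For *Col5a1* the groups did not overlap, at 375.5 to 396.4 against 404.8 to 524.9 CPM, and it was called lower in 5 of 15 alternatives, among them that without wild-type replicate 3 (adjusted *P* = 0.0148). The ratio of *Col1a1* to *Col1a2* per kb overlapped, at 1.5 to 1.52 in the mutant and 1.45 to 1.58 in the wild-type libraries. The rarer fibrillar genes *Col5a3* and *Col24a1* did not pass, with log2 fold changes of -0.20 (adjusted *P* = 0.552) and -0.10 (adjusted *P* = 0.563) and groups that overlapped.

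Of the cartilage fibril chains, those of types IX and XI fell while *Col2a1* did not pass the test. *Col2a1*, the main chain of that fibril, had 598.8, 594.9 and 587.3 CPM in mutant and 688.4, 538.3 and 553.2 CPM in wild-type embryos, a log2 fold change of 0.0015 (standard error 0.079, adjusted *P* = 0.994). *Col9a3* had 76.4, 86.9 and 90.03 CPM in mutant and 128.4, 110.9 and 114.5 CPM in wild-type embryos, a log2 fold change of -0.48 (standard error 0.060, adjusted *P* = 3.98e-06). The other 2 chains of the type IX heterotrimer, which coats the type II fibril, fell less: *Col9a1* had a log2 fold change of -0.28 (adjusted *P* = 0.00216) and *Col9a2* also of -0.28 (adjusted *P* = 7.12e-04). For each of the 3 type IX chains the mutant libraries lay below all wild-type libraries.

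The type XI chains nucleate the cartilage fibril. *Col11a2* had 39.9, 46.6 and 44.5 CPM in mutant and 68.9, 51.5 and 55.2 CPM in wild-type embryos, a log2 fold change of -0.42 (standard error 0.10, adjusted *P* = 0.0275). *Col11a1* had 185.8, 188.9 and 198.9 CPM against 231.4, 200.2 and 210.0 CPM, a log2 fold change of -0.16 (standard error 0.048, adjusted *P* = 0.0223). Groups did not overlap for either chain, but single libraries decided both calls. The *Col11a2* call was lost without mutant replicate 1, mutant replicate 3 or wild-type replicate 3 (adjusted *P* = 0.0748, 0.0894 and 0.102), and that of *Col11a1* without mutant replicate 1, mutant replicate 2 or wild-type replicate 1 (adjusted *P* = 0.139, 0.116 and 0.101; log2 fold change -0.10 in the last case). Relative to *Col2a1*, per kb, the type IX chains separated the groups: *Col9a3* stood at 0.306 to 0.368 of *Col2a1* in the mutant and 0.447 to 0.497 in the wild-type libraries, and *Col9a1* at 0.299 to 0.319 and 0.365 to 0.393.

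Cartilage markers that are not collagens moved with these chains. Of 15 genes in the cartilage list, 13 were tested in the *Carm1* line, and 6 fell and none rose, with a median log2 fold change of -0.41. Of all genes tested in this line, 7.83% fell and 5.49% rose. The list's summed level was 364.8 to 370.0 CPM in mutant and 384.8 to 422.8 CPM in wild-type embryos, and no member was at 0 in all libraries. *Cytl1* (log2 fold change -1.71), *Acan*, the proteoglycan aggrecan (-0.63), and *Hapln1*, which links aggrecan to hyaluronan (-0.41), had the smallest adjusted *P* values of the list (4.60e-05 to 5.55e-04). Their part in the result was not tested. *Col9a3* exons overlap the opposite-strand gene *Tcfl5* over 234 nt. *Tcfl5* had 2.05 CPM in mutant and 1.40 CPM in wild-type embryos, well under the level of *Col9a3*.

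Beside type IX, 3 more FACITs fell in *Carm1* KO/KO embryos. *Col12a1*, which lies on type I fibrils of tendon and fascia, had 209.0, 230.2 and 239.2 CPM in mutant and 314.4, 304.3 and 286.3 CPM in wild-type embryos, a log2 fold change of -0.42 (standard error 0.047, adjusted *P* = 1.31e-07). The log2 fold change was -0.41 for *Col16a1* (standard error 0.064, adjusted *P* = 1.87e-04) and -0.31 for *Col14a1*, of similar build to *Col12a1* (standard error 0.056, adjusted *P* = 1.88e-04). All 3 were free of overlap, and *Col14a1* libraries of the mutant lay within 57.1 to 57.7 CPM. *Col19a1*, *Col20a1* and *Col22a1* did not pass the test, with log2 fold changes between -0.20 and 0.04. In the fit of all 12 libraries *Col16a1* kept its call (0.00468), whereas *Col12a1* (0.137) and *Col14a1* (0.328) did not.

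All 3 main chains of type VI, which form 1 heterotrimer around cells of connective tissue and muscle, fell in *Carm1* KO/KO embryos. *Col6a3* had 172.0, 187.6 and 190.0 CPM in mutant and 275.0, 232.8 and 218.3 CPM in wild-type embryos, a log2 fold change of -0.40 (standard error 0.079, adjusted *P* = 0.00829). *Col6a2* had a log2 fold change of -0.33 (adjusted *P* = 1.32e-04) and *Col6a1* of -0.25 (adjusted *P* = 0.00104). *Col6a6*, an alternative to the *Col6a3* chain, fell from 14.8, 12.8 and 13.3 CPM in wild-type to 9.32, 9.24 and 9.95 CPM in *Carm1* KO/KO embryos (log2 fold change -0.51, adjusted *P* = 0.00106). The groups of these 4 genes did not overlap, and *Col6a3* to *Col6a1* per kb was 0.455 to 0.463 in the mutant and 0.494 to 0.538 in the wild-type libraries. *Col6a4* and *Col6a5*, at 19 to 38 counts per library of the *Carm1* line, did not pass the test. Of the 4 calls, only that of *Col6a6* held in the fit of all 12 libraries (adjusted *P* = 0.0054, against 0.0715 to 0.218).

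Beside types I, XII and VI, some markers of mesenchyme and tendon fell and no bone marker was called. The tendon genes *Scx*, *Tnmd* and *Mkx* did not pass (log2 fold changes -0.01, -0.41 and -0.19). In the mesenchyme and tendon list all 15 genes were tested, 6 fell and 1 rose, with a median log2 fold change of -0.19 and a summed level of 1383 to 1449 CPM in *Carm1* KO/KO against 1512 to 1526 CPM in wild-type embryos. Those with the smallest adjusted *P* values were the proteoglycan gene *Dcn* (log2 fold change -0.30), *Thbs2* (-0.34) and *Postn* (-0.22). None of 9 bone genes tested was called by edgeR, where 4 had an unadjusted *P* below 0.05, and 0 were called by DESeq2. Their median log2 fold change was -0.24, the summed level was 86.9 to 95.3 against 102.5 to 105.7 CPM, and *Mepe* was at 0. The part of these tissues in the result was not tested.

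Of the 6 type IV genes 3 rose and none fell at the threshold in the *Carm1* line. The 6 genes lie as 3 pairs, each read outward from a shared start region: the first exons of *Col4a1* and *Col4a2* overlap, those of *Col4a3* and *Col4a4* are 71 bases apart and those of *Col4a5* and *Col4a6* 1308. The overlap of the first pair is 22 bases, chr8:11312805-11312826 of GRCm38 (+ strand), shown since both genes of the pair rose. If counted without strand, a read on it matches both genes, and whether such reads were shared or left out is not known.

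Col4a1/Col4a2 overlap: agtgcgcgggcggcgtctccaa

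*Col4a2* had 353.1, 348.2 and 329.5 CPM in mutant and 327.3, 285.3 and 273.4 CPM in wild-type embryos, a log2 fold change of 0.22 (standard error 0.053, adjusted *P* = 0.00732). *Col4a1*, its partner in the common type IV trimer, had 515.7, 502.9 and 483.7 CPM against 487.8, 450.1 and 413.8 CPM, a log2 fold change of 0.15 (standard error 0.050, adjusted *P* = 0.0384). For *Col4a2* the groups did not overlap, whereas the lowest mutant library of *Col4a1* lay just under the highest wild-type library. *Col4a5* rose as well (60.9 to 68.1 against 53.0 to 57.8 CPM, log2 fold change 0.19, adjusted *P* = 0.0237). *Col4a6*, its neighbour on the X chromosome, had a log2 fold change of 0.24 that did not pass (adjusted *P* = 0.103). It was called with length and GC offsets (0.0372) and without wild-type replicate 3 (0.0261). The Y-linked term also called it (0.0264), but that term marks wild-type replicate 3 alone and gave nearly the same fit. The rare chains *Col4a3* and *Col4a4* had log2 fold changes of -0.35 (adjusted *P* = 0.642) and 0.51 (adjusted *P* = 0.284). These are small differences: *Col4a1* lost its call in 7 of 15 alternatives, among them those without any 1 of the 3 mutant libraries or without wild-type replicate 2 or 3 (adjusted *P* = 0.0583 to 0.200). *Col4a5* lost it in 5, among them DESeq2 (adjusted *P* = 0.0683) and the fits without mutant replicate 1, mutant replicate 2 or wild-type replicate 2 (0.205, 0.0551 and 0.169), and in the fit of all 12 libraries *Col4a2* had an adjusted *P* of 0.341.

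*Col18a1* had the largest rise among the collagens called in the *Carm1* line. It had 284.5, 274.8 and 260.8 CPM in mutant and 229.8, 202.7 and 201.1 CPM in wild-type embryos, a log2 fold change of 0.37 (standard error 0.048, adjusted *P* = 1.48e-06). Every mutant library exceeded every wild-type library. The call held in 14 of 15 alternatives and was lost in the fit of all 12 libraries (adjusted *P* = 0.0933). For *Col15a1*, the other multiplexin, it was -0.01 (standard error 0.064, adjusted *P* = 0.940). As a share of all collagen counts, type IV made up 11.1% to 12.2% in *Carm1* KO/KO and 9.19% to 9.44% in wild-type embryos, and multiplexins 3.95% to 4.4% and 3.07% to 3.08%, while FACITs made up 8.24% to 8.86% and 9.86% to 10.2%. These shares also reflect the collagen total, at 7861 to 8119 CPM in mutant and 8280 to 9701 CPM in wild-type embryos. Summed type IV levels were less far apart than the shares, at 894.3 to 958.8 and 764.3 to 892.0 CPM.

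**Figure D3:**
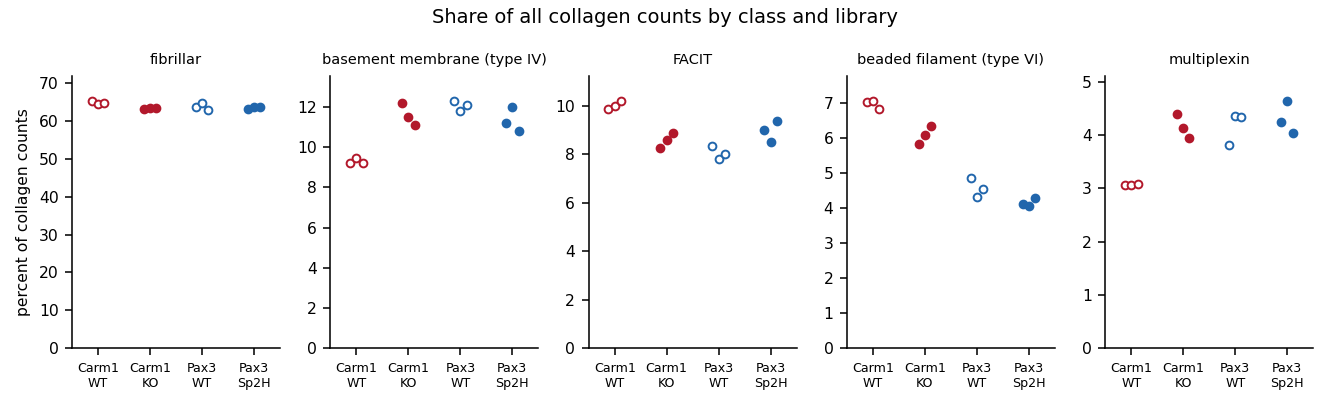
Percent of all collagen counts in 5 classes (y axes from 0), 1 point per library, open for wild type and filled for mutant, with the *Carm1* line in red and the *Pax3* line in blue. In the *Carm1* line the mutant type IV shares (11.1% to 12.2%) lie above the wild-type shares and the FACIT and type VI shares lie below them.

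Other genes of basement membranes and of endothelium were listed beside these. Of all genes tested in the *Carm1* line, 5.49% rose and 7.83% fell. Of 22 basement membrane genes other than collagens, 3 rose and 2 fell, with a median log2 fold change of -0.0017. The laminin genes *Lama1* (45.6 ± 2.92 to 70.6 ± 1.08 CPM, log2 fold change 0.64, adjusted *P* = 5.90e-10) and *Lamc3* (log2 fold change 0.76) were among those that rose, and *Smoc2* (-0.25) was among those that fell. Of 12 endothelial genes 3 rose and none fell, *Egfl7* (log2 fold change 0.26), *Tek* (0.28) and *Emcn* (0.33), with a median of 0.09 for the list and a summed level of 495.3 to 523.1 CPM in *Carm1* KO/KO against 460.3 to 497.1 CPM in wild-type embryos. The part of these cells in the type IV and *Col18a1* values was not tested.

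Among transmembrane and unclassed collagens, *Col17a1*, the hemidesmosome collagen of basal epidermal cells, fell. It had 7.79, 12.2 and 10.9 CPM in mutant and 16.2, 14.4 and 14.7 CPM in wild-type embryos, a log2 fold change of -0.55 (standard error 0.12, adjusted *P* = 0.0019), and it kept its call in all 15 alternatives. *Col13a1*, *Col23a1* and *Col25a1* did not pass the test (log2 fold changes -0.05, 0.11 and -0.14). *Col7a1*, the anchoring fibril of the dermal-epidermal junction, had a log2 fold change of 0.04 (adjusted *P* = 0.804), and *Col26a1* of -0.0037 (adjusted *P* = 0.972). *Col28a1*, the third unclassed gene, had the most negative log2 fold change of the collagens tested in this line, -0.70, but did not pass (standard error 0.32, adjusted *P* = 0.151). Its groups did not overlap, at 13 to 19 counts in mutant and 26 to 43 in wild-type libraries. Among 12 markers of epidermis and epithelium 4 fell and none rose, where 7.83% of all genes fell. The smallest adjusted *P* values were those of *Krt5* (log2 fold change -0.62), *Krt14* (-0.70) and *Krt17* (-1.36). The list's summed level was 235.7 to 243.1 CPM in mutant and 288.8 to 309.7 CPM in wild-type embryos, and its part in the *Col17a1* value was not tested. In the short-chain class *Col8a1* fell (19.7, 22.6 and 23.0 against 28.3, 29.7 and 28.6 CPM, log2 fold change -0.41, adjusted *P* = 3.28e-04), and *Col8a2* had a log2 fold change of -0.02 (adjusted *P* = 0.845).

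Several of the same cartilage fibril chains were higher in the *Pax3* line. *Col9a2* had 93.0, 110.4 and 113.5 CPM in mutant and 69.1, 78.9 and 63.4 CPM in wild-type embryos, a log2 fold change of 0.59 (standard error 0.084, adjusted *P* = 1.47e-04). *Col9a3* had 68.3, 71.0 and 90.7 CPM against 50.7, 52.7 and 44.4 CPM, a log2 fold change of 0.64 (standard error 0.11, adjusted *P* = 0.00307). *Col9a1* had 127.9, 134.2 and 130.0 CPM against 101.8, 111.9 and 92.1 CPM, a log2 fold change of 0.36 (standard error 0.061, adjusted *P* = 9.42e-05). Every mutant library exceeded every wild-type library for all 3 chains, and the one call lost in any alternative was that of *Col9a3* without wild-type replicate 1 (adjusted *P* = 0.0547).

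*Col11a2* rose from 25.6, 28.8 and 19.1 CPM in wild-type to 34.4, 42.0 and 40.7 CPM in *Pax3* Sp2H/Sp2H embryos, a log2 fold change of 0.68 (standard error 0.13, adjusted *P* = 0.00219). Its partner *Col11a1* had 142.3 to 166.6 CPM in the mutant and 128.0 to 183.6 CPM in wild-type embryos, a log2 fold change of -0.02 (standard error 0.16, adjusted *P* = 0.935). The ratio of *Col11a2* to *Col11a1* per kb was 0.448 to 0.477 in the mutant and 0.258 to 0.317 in the wild-type libraries. In the *Carm1* line it was 0.398 to 0.458 and 0.477 to 0.552, and no test of the ratio was run in either line. *Col2a1* had a log2 fold change of 0.26 that did not pass (523.5, 634.6 and 618.6 against 535.8, 545.7 and 404.4 CPM, standard error 0.12, adjusted *P* = 0.145), and *Col9a2* stood at 0.520 to 0.548 of *Col2a1* per kb in the mutant and 0.385 to 0.468 in the wild-type libraries. For *Col9a3* that ratio was 0.269 to 0.352 and 0.227 to 0.263, whereas for *Col9a1* it overlapped, at 0.383 to 0.446 and 0.347 to 0.416. The cartilage markers that are not collagens gave no call in the 12 tested (3 of them had an unadjusted *P* below 0.05 in edgeR, and 0 were called by DESeq2), their median log2 fold change was 0.0023, and their summed level was 399.0 to 416.6 CPM in the mutant and 389.6 to 420.5 CPM in wild-type embryos.

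*Col27a1*, a fibrillar collagen made in cartilage, rose too, with 98.1, 106.3 and 107.3 CPM in mutant and 83.5, 84.9 and 78.3 CPM in wild-type embryos (log2 fold change 0.34, standard error 0.058, adjusted *P* = 1.00e-04). The fibrillar genes of loose connective tissue did not pass the test in this line: *Col1a1*, *Col1a2*, *Col3a1*, *Col5a1* and *Col5a2* had log2 fold changes between -0.08 and 0.05, and all 5 groups overlapped. Their standard errors reached 0.18 for *Col1a1*, which had 462.2, 609.1 and 607.9 CPM in the mutant and 601.6, 660.9 and 459.3 CPM in wild-type embryos. The lowest library of each group, mutant replicate 1 and wild-type replicate 3, was also the one with the smallest collagen share of counts (0.577% and 0.544%).

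*Col13a1*, a transmembrane collagen of cell contacts including the neuromuscular junction, rose from 9.46, 9.15 and 8.54 CPM in wild-type to 12.7, 14.7 and 14.8 CPM in *Pax3* Sp2H/Sp2H embryos (log2 fold change 0.63, standard error 0.11, adjusted *P* = 9.71e-05). *Col7a1* rose from 15.2, 15.0 and 12.5 to 21.6, 24.5 and 19.4 CPM (log2 fold change 0.62, standard error 0.10, adjusted *P* = 5.04e-05). *Col17a1* of basal epidermal cells had a log2 fold change of 0.10 (adjusted *P* = 0.634). Of 12 epidermal and epithelial markers 1 rose, *Krt15* (log2 fold change 0.68), where 14.0% of all genes rose. Their summed level was 241.1 to 271.5 CPM in the mutant and 211.3 to 238.9 CPM in wild-type embryos, and its part in the *Col7a1* value was not tested.

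The largest log2 fold change among the collagens called in either line was the fall of *Col19a1*, a rare FACIT of vascular, neuronal and mesenchymal basement membrane zones. It had 2.37, 2.78 and 2.38 CPM (53 to 61 counts) in *Pax3* Sp2H/Sp2H and 6.63, 4.98 and 4.64 CPM (86 to 136 counts) in wild-type embryos, a log2 fold change of -1.11 (standard error 0.18, adjusted *P* = 5.88e-05), and the call held in all 15 alternatives. In the *Carm1* line it had 7.48 to 9.29 CPM in the mutant and 7.94 to 8.48 CPM in wild-type embryos. Skeletal muscle genes moved with it in the *Pax3* line: of 12 tested, 10 fell and none rose, where 10.5% of all genes fell. *Myod1* (log2 fold change -1.28), *Myog* (-1.09) and *Myl1* (-0.87) had the smallest adjusted *P* values of these muscle genes. Their summed level was 208.5 to 241.4 CPM in the mutant and 377.0 to 444.9 CPM in wild-type embryos. In the *Carm1* line 9 of 12 fell as well (7.83% of all genes fell), with sums of 473.8 to 490.8 against 638.6 to 718.8 CPM, while *Col19a1* did not pass the test (log2 fold change 0.04, adjusted *P* = 0.889). The part of muscle cells in the *Col19a1* value was not tested.

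No type IV, type VI, multiplexin or short-chain gene passed edgeR's test in the *Pax3* line as fitted on its 6 libraries, where 0 had an unadjusted *P* below 0.05 and DESeq2 also called 0. Some alternatives did call such genes: *Col8a1* was lower in the fit of all 12 libraries (log2 fold change -0.36, adjusted *P* = 0.0431), *Col8a2* was higher with a term for Y-linked counts (0.39, 0.0043) and without wild-type replicate 2 (0.43, 0.0464), and *Col15a1* was called with length and GC offsets. Without wild-type replicate 3, *Col4a1* (log2 fold change -0.23), *Col6a2* (-0.21), *Col6a3* (-0.25), *Col8a1* (-0.47), *Col12a1* (-0.36) and *Col14a1* (-0.40) were called lower, with adjusted *P* values of 0.0149 to 0.0482, together with *Col15a1*. With all libraries their groups overlapped. The type IV share of collagen counts was 10.8% to 12% in the mutant and 11.8% to 12.3% in wild-type embryos. Of 22 basement membrane genes other than collagens, 2 fell in this line, *Lama4* (log2 fold change -0.41) and *Nid1* (-0.26), and none rose, where 10.5% of all genes fell. The median of the 22 was -0.12, and 17 had negative fold changes.

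**Figure D4:**
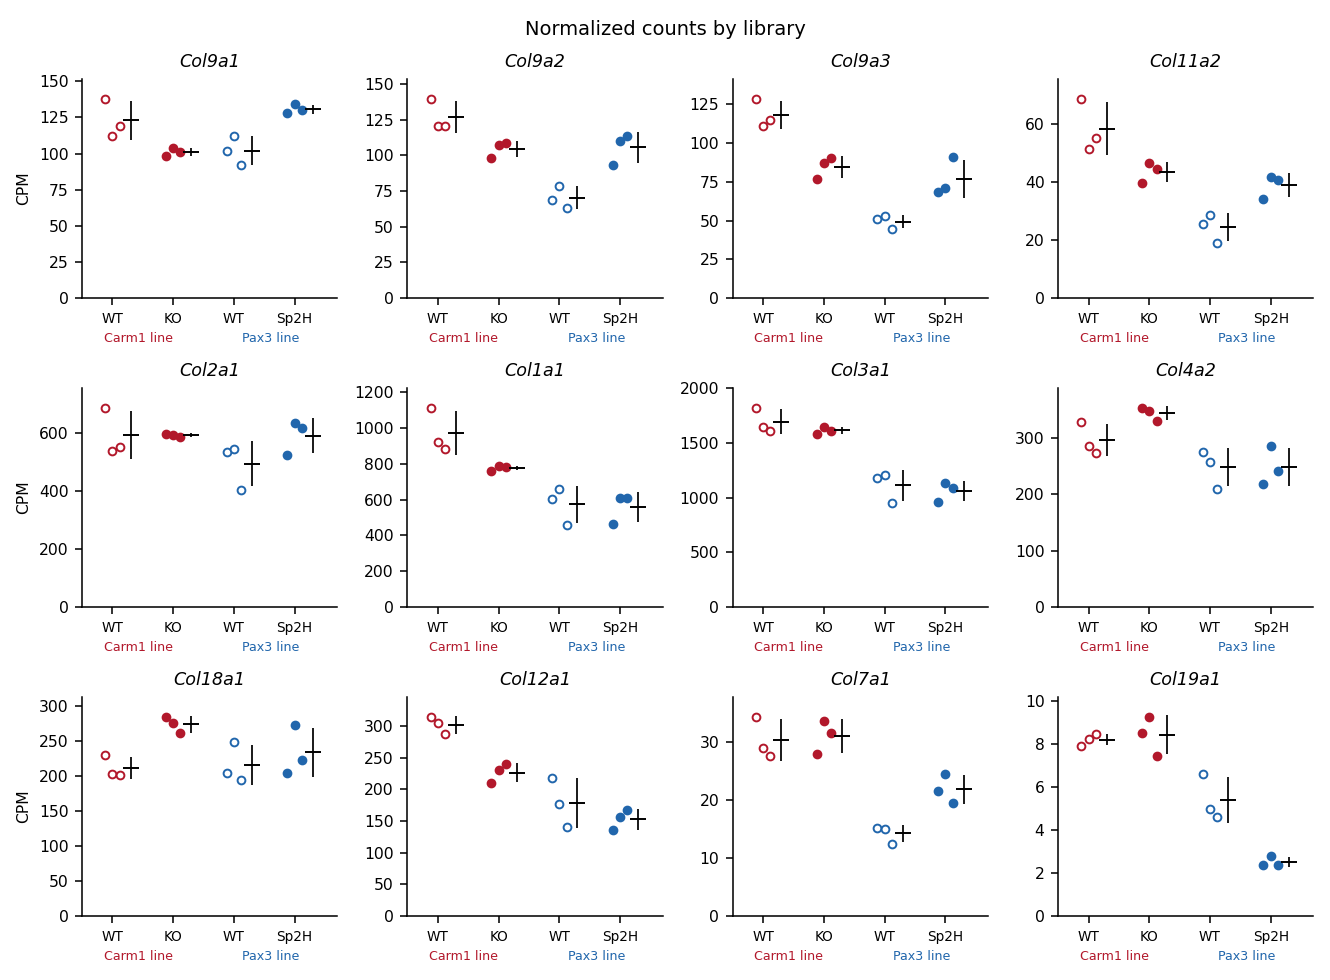
CPM of 12 collagen genes in each of the 12 libraries (y axes from 0, open points wild type, filled points mutant, red *Carm1* line, blue *Pax3* line), with the mean ± SD (n = 3) beside each group. For *Col9a1*, *Col9a2*, *Col9a3* and *Col11a2* the mutants lie below wild type in the *Carm1* line and above it in the *Pax3* line, and for *Col2a1* and *Col3a1* the groups overlap in both.

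Whether a collagen gene responded differently to the 2 mutations was tested directly, as the fold change in the *Carm1* line minus that in the *Pax3* line, in 1 fit of all 12 libraries. Of 43 collagen genes tested, 10 (23.3%) differed in edgeR, against 19.1% of all 16292 genes, which is close to the background. In 9 of them the *Carm1* fold change was the lower one (background 10.5%) and in 1 it was the higher one (background 8.65%). The 4 cartilage chains called in both lines, each in opposite directions, were *Col9a3* (log2 difference -1.11, standard error 0.16, adjusted *P* = 8.88e-04), *Col11a2* (-1.09, standard error 0.23, adjusted *P* = 0.00945), *Col9a2* (-0.85, standard error 0.12, adjusted *P* = 2.34e-04) and *Col9a1* (-0.63, standard error 0.092, adjusted *P* = 2.73e-05). On the other side was *Col19a1* (1.16, standard error 0.21, adjusted *P* = 2.04e-04). *Col13a1* (-0.67), *Col7a1* (-0.57) and *Col27a1* (-0.32) differed too, each called in the *Pax3* line alone, as did *Col17a1* (-0.64), called in the *Carm1* line alone. *Col16a1* differed as well (-0.63, adjusted *P* = 0.00218), with log2 fold changes of -0.41 in the *Carm1* line and 0.22 (adjusted *P* = 0.0532) in the *Pax3* line, where 6 of 15 alternatives called it higher (adjusted *P* = 0.0146 to 0.0454), among them those without mutant replicate 1 or wild-type replicate 2.

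Calls present in 1 line alone did not all come with a tested difference. For *Col1a1* the difference between the lines was -0.28 (standard error 0.22, adjusted *P* = 0.448), for *Col18a1* 0.27 (standard error 0.17, adjusted *P* = 0.327), for *Col4a2* 0.23 (standard error 0.18, adjusted *P* = 0.434) and for *Col12a1* -0.19 (standard error 0.22, adjusted *P* = 0.616). Over the 42 genes tested in both lines, 23 had fold changes of the same sign, 14 were lower in *Carm1* KO/KO and higher in *Pax3* Sp2H/Sp2H embryos, 16 were called in the *Carm1* line alone, 4 in the *Pax3* line alone and 18 in neither.

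**Figure D5:**
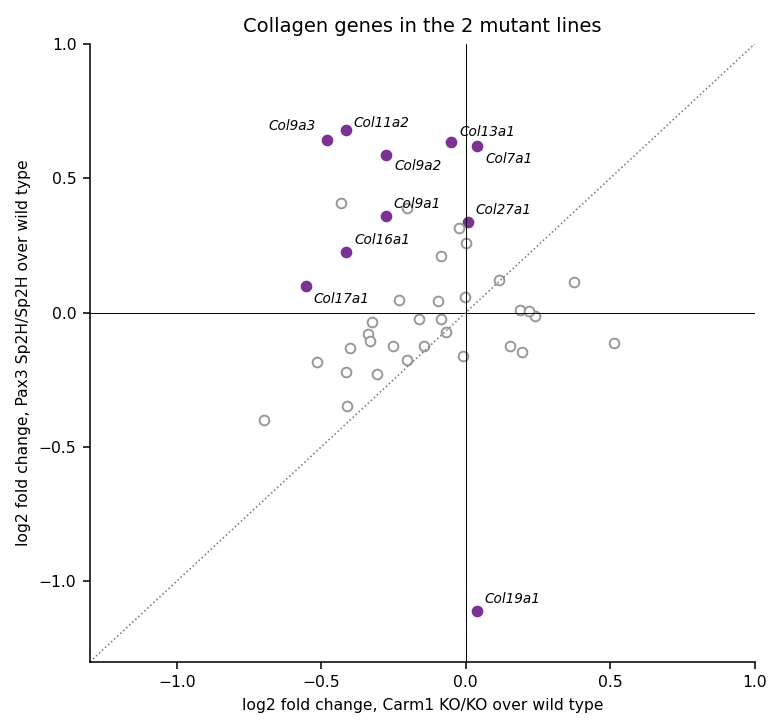
Log2 fold change in the *Carm1* line (x axis) against that in the *Pax3* line (y axis) for the 42 collagen genes tested in both. Filled points differed between the lines (adjusted *P* below 0.05, edgeR interaction test) and the dotted line marks equal change. *Col9a1*, *Col9a2*, *Col9a3* and *Col11a2* lie in the upper left, and *Col19a1* lies at -1.11 on the y axis.

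The 250 bases before the RefSeq start of genes whose response differed between the lines are shown for *Col9a1* and *Col11a2*, which moved in opposite directions, and for *Col13a1*, *Col7a1* and *Col27a1*, called in the *Pax3* line alone; windows that overlap annotated exons are left out. Coordinates are of GRCm38, each sequence is given along the strand of its gene, and capitals mark matches, on either strand, to the 3 promoter motifs searched, the TATA box with the letters TATAAA, the CCAAT box and the GC box with the letters GGGCGG. Of 32851 RefSeq windows of the same length, 12.4%, 33.8% and 32.7% held them. Letters that SOX factors of cartilage are known to bind were searched as well on both strands, ACAAAG, held by 16.5% of windows, and its variant ACAATG, held by 10.7%.

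Col9a1, chr1:24177360-24177609, + strand: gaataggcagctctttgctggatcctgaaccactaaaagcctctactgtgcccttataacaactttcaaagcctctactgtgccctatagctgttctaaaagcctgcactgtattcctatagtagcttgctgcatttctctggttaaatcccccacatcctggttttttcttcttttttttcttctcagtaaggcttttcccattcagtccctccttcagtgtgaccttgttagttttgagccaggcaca
Col11a2, chr17:34038888-34039137, + strand: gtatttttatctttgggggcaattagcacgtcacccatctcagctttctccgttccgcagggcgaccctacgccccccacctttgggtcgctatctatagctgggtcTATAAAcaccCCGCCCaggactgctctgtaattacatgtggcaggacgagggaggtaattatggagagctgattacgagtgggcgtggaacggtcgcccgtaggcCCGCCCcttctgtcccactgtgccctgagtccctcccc
Col13a1, chr10:61979109-61979358, - strand: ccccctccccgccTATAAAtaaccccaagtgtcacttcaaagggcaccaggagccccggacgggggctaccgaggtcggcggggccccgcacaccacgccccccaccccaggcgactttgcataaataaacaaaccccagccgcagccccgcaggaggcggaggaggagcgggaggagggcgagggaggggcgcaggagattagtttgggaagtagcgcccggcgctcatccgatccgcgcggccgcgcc
Col7a1, chr9:108953336-108953585, + strand: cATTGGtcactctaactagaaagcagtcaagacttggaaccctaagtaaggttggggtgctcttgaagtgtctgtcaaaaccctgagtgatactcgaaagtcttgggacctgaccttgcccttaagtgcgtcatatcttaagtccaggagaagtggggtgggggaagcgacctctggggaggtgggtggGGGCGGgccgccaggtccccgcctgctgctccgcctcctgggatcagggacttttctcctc
Col27a1, chr4:63215162-63215411, + strand: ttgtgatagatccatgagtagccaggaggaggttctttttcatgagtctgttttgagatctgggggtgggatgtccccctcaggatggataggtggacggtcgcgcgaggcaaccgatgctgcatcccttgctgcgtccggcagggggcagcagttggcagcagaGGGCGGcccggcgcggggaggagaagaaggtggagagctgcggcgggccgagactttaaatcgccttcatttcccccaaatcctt

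*Col11a2* held 1 match to the TATA box letters and 2 to the GC box, and *Col13a1* 1 to the TATA box letters. *Col7a1* held 1 match to the CCAAT box and 1 to the GC box and *Col27a1* 1 to the GC box, whereas none of the letters searched was in the *Col9a1* window. Matches were counted anywhere in a window, whatever their distance from the start. They are therefore matches of letters alone, and whether any acts as a promoter element was not tested. None of the 5 windows held either SOX sequence. *Col9a1* has a second RefSeq start within the gene, which is not shown because its window holds annotated exon bases. The *Col27a1* window lies before its RefSeq start but inside the GENCODE model of the gene, which begins at chr4:63214004. For *Col11a2* the GENCODE model begins downstream of the RefSeq start, at chr17:34039437 against chr17:34039138, so that its window does not adjoin that model. The upstream sequences of *Col9a3* and *Col2a1* were not used here.

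Genes that make, process and bind collagen were listed next. For all these lists the background was 7.83% lower and 5.49% higher genes in the *Carm1* line, and 10.5% lower and 14.0% higher genes in the *Pax3* line. The calls among the 25 folding genes were near the share over all genes in both lines. Among 25 genes that modify and fold the chains in the endoplasmic reticulum, 3 fell and none rose in *Carm1* KO/KO embryos, *Crtap* (log2 fold change -0.24), *P3h3* (-0.15) and *P3h1* (-0.17), members or relatives of the prolyl 3-hydroxylase complex. In *Pax3* Sp2H/Sp2H embryos 2 of the 25 rose, *P3h3* (0.38, adjusted *P* = 2.70e-05) and *P3h4* (0.30), and 3 fell, the first of them *Sec24d* (-0.22) of the secretory coat. Summed levels of this list differed little, at 2943 to 3023 against 2999 to 3135 CPM in the *Carm1* line and 2852 to 3043 against 2851 to 3044 CPM in the *Pax3* line.

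Of 15 genes of propeptide cleavage and cross-linking tested in the *Carm1* line, 3 fell and 1 rose. *Lox*, the lysyl oxidase that cross-links fibrils, fell from 87.9 ± 5.66 to 57.6 ± 3.19 CPM (SD, n = 3 each; log2 fold change -0.61, adjusted *P* = 9.20e-10), and *Bmp1*, which removes C-propeptides of fibrillar chains, fell by 0.14 on the log2 scale (adjusted *P* = 0.0364). *Pcolce*, the enhancer of that cleavage, rose from 62.1 ± 1.42 to 79.2 ± 0.153 CPM (log2 fold change 0.35, adjusted *P* = 6.07e-06). In the *Pax3* line *Bmp1* was the single call of this list, and it rose (0.19, adjusted *P* = 0.0176).

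Small proteoglycans that bind fibrils gave 5 calls among 13 genes tested in the *Carm1* line and 5 among 14 tested in the *Pax3* line. In *Carm1* KO/KO embryos 4 fell, led by *Aspn* (log2 fold change -0.96), *Dcn* (-0.30) and *Kera* (-0.68), and 1, *Lum*, rose (0.18, adjusted *P* = 0.0127). In *Pax3* Sp2H/Sp2H embryos all 5 fell, among them *Bgn* (-0.34), *Lum* (-0.24) and *Kera* (-0.67), and the list's summed level was 242.1 to 267.4 CPM in the mutant and 293.2 to 340.2 CPM in wild-type embryos. No collagen receptor of 13 was called in the *Carm1* line by edgeR, where 2 had an unadjusted *P* below 0.05, and 0 were called by DESeq2. In the *Pax3* line 2 receptors rose, *Ddr1* (0.27) and *Itga10* (0.58), an integrin chain of chondrocytes that binds type II collagen, and 3 fell, the first of them the type III collagen receptor gene *Adgrg1* (-0.20). The list of collagen degradation holds proteases and also their inhibitors. Of 11 of its genes tested, 5 fell and none rose in *Carm1* KO/KO embryos. The protease inhibitor gene *Timp3* (-0.35) and the protease genes *Mmp9* (-0.91) and *Ctsk* (-0.50) had the smallest adjusted *P* values. In *Pax3* Sp2H/Sp2H embryos the inhibitor gene *Timp3* alone fell (-0.42, adjusted *P* = 8.65e-06).

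Some markers of other tissues were called in the same libraries. Of all genes tested, 13.3% were called in the *Carm1* line (7.83% lower and 5.49% higher) and 24.5% in the *Pax3* line (10.5% lower and 14.0% higher). Calls among the erythroid, hepatocyte, endothelial and bone genes of the *Pax3* line were near or below that share over all genes. In *Carm1* KO/KO embryos 10 of 12 hepatocyte genes fell, *Fgg*, *Serpina1a* and *Ttr* first, with a summed level of 898.6 to 1090 CPM against 1636 to 1988 CPM in wild-type embryos. Of 10 erythroid genes tested 7 fell (*Slc4a1*, *Klf1* and *Epor* first) and 1 rose, with *Hba-a1* at 0 and sums of 7684 to 9000 against 5519 to 9605 CPM. Of 12 neuronal genes 5 fell in each line, with *Dcx*, *Gap43* and *Stmn2* first in the *Carm1* line and *Nefl*, *Elavl4* and *Nefm* first in the *Pax3* line. In the *Pax3* line 1 of 10 erythroid genes rose (*Epor*), 1 of 12 hepatocyte genes rose (*Apoa2*) and 2 fell (*Trf* and *Afp*), and 2 of 12 endothelial genes rose (*Egfl7* and *Cldn5*). Of 9 bone genes tested there, 1 fell and none rose. Of 15 mesenchyme and tendon genes 2 rose and 3 fell, *Postn* (-0.50), *Twist1* (0.42) and *Lum* first. The part of these tissues in the collagen values was not tested.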

How the data were processed

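RNA from whole E12.5 embryos was sequenced, with 3 libraries per group. The authors used STAR to align read pairs to mm10 and featureCounts to count them per gene, and their versions, strand setting and treatment of reads with several matches are not given in the sources used here. The deposited values are raw counts of 23420 genes. Libraries of each line were fitted by edgeR 4.0.16 (R 4.3.3; TMM factors, filterByExpr, robust quasi-likelihood test) with group as the only term, and adjusted *P* values (Benjamini-Hochberg, threshold 0.05) cover every gene tested. The difference between lines was the interaction in a fit of all 12 libraries. The procedure was tested on simulated data. CPM per kb used GENCODE exon lengths of GRCm38, to which 21777 symbols matched as written and 1275 through older symbols. Upstream sequence came from RefSeq (GRCm38.p6) for 35 of the 44 genes, and the others were not used here.

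The collagen genes, the companion lists and the tissue marker lists were chosen with earlier results of these data known. Named were all collagen genes called, the other chains of their types and fibrils, the highest gene of each class and, of each list, up to 3 called genes per line with the smallest adjusted *P*. Other collagen genes are given where their class is described for the *Carm1* line. Alternatives were RLE and upper-quartile factors, DESeq2 1.42.0, no filter, at least 10 counts in every library, 1 fit of all libraries, a replicate block, a term for Y-linked counts (at least 100), length and GC offsets, and leaving out each library.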

Additional observations from a re-analysis of the deposited data

Results flagged for a closer look

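The fold changes of 10 of 43 collagen genes (23.3%) differed between the lines by the interaction test in edgeR, against 19.1% of all 16292 genes. The values are the log2 fold change in *Carm1* KO/KO minus that in *Pax3* Sp2H/Sp2H embryos, and the lines also differ in strain and colony, which cannot be told apart from the mutations. The difference was -1.1128 for *Col9a3*, -1.0891 for *Col11a2*, -0.8539 for *Col9a2* and -0.6282 for *Col9a1*, the cartilage chains called in both lines in opposite directions. It was 1.1592 for *Col19a1*, -0.6748 for *Col13a1*, -0.571 for *Col7a1* and -0.3209 for *Col27a1*, called in the *Pax3* line alone. It was -0.6297 for *Col16a1* and -0.6411 for *Col17a1*, called in the *Carm1* line alone, although 6 of 15 alternatives called *Col16a1* in the *Pax3* line as well. Of these, 9 kept their call in all 20 alternatives, whereas *Col17a1* lost it in 6 (adjusted *P* up to 0.0863), each of which left out 1 library.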

How the results depend on the processing

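RLE and upper-quartile factors, DESeq2, no filter and a minimum of 10 counts left 19 to 21 collagen genes called in the *Carm1* line, 8 or 9 in the *Pax3* line and 10 in the difference. The fit of all 12 libraries called 7 in the *Carm1* line, 0 higher and 7 lower, and the cause was not tested. Lower calls in the *Pax3* line went from 1 to 2 in that fit, with the replicate block and with length and GC offsets, and higher calls in the difference went from 1 to 3 with the block and 2 with the offsets. The offsets moved the higher share of calls over all genes from 41.2% to 58.9% in the *Carm1* line and from 45.3% to 54.7% in the difference, while collagen calls in the *Carm1* line were 6 higher and 17 lower.

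Leaving out 1 library gave 16 to 20 collagen calls in the *Carm1* line (2 to 4 higher, 14 to 16 lower), 7 to 15 in the *Pax3* line (6 to 10 higher, 1 to 8 lower) and 9 to 12 in the difference (1 to 4 higher, 8 to 10 lower). The median log2 fold change ranged from -0.1862 to -0.1012 in the *Carm1* line and from -0.0878 to 0.0837 in the *Pax3* line. The highest *Pax3* count, 15, came without *Pax3* wild-type replicate 3.

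Replicate numbers did not pair the samples: same-numbered deviations correlated at -0.0622, -0.000649 and -0.0526 in the *Carm1* line and 0.187, -0.0801 and 0.275 in the *Pax3* line. The replicate block gave 21 calls (4 higher, 17 lower) in the *Carm1* line, 10 (8 higher, 2 lower) in the *Pax3* line and 12 (3 higher, 9 lower) in the difference, with medians of -0.1593 and -0.0042. It added calls for *Col5a1* in the *Carm1* line (log2 fold change -0.22) and for *Col16a1* (0.22) and *Col8a1* (-0.33) in the *Pax3* line.

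Fold changes that turned sign all belonged to genes without a call in that line. With the term for Y-linked counts they were -0.0433 for *Col27a1*, -0.0454 for *Col2a1* and -0.0197 for *Col7a1* in the *Carm1* line and -0.0405 for *Col4a2* and -0.0102 for *Col4a5* in the *Pax3* line. *Col2a1* had -0.0006 in the *Carm1* line with a minimum of 10 counts, and *Col4a2* had -0.0001 with RLE factors and -0.0056 in the fit of all 12 libraries. With length and GC offsets the *Pax3* line gave 0.0864 for *Col11a1*, -0.0098 for *Col18a1*, -0.0469 for *Col26a1*, -0.1259 for *Col4a2*, -0.0168 for *Col5a1* and 0.0514 for *Col5a2*. Leaving out 1 library turned others, with a range over these fits that spanned 0 for *Col13a1* (-0.093 to 0.0092), *Col19a1* (-0.0361 to 0.1163), *Col26a1* (-0.0434 to 0.0267), *Col27a1* (-0.0433 to 0.0978), *Col2a1* (-0.0622 to 0.1216), *Col7a1* (-0.0228 to 0.1332) and *Col8a2* (-0.0709 to 0.0382) in the *Carm1* line and for *Col11a1* (-0.1603 to 0.0886), *Col17a1* (-0.0773 to 0.2541), *Col18a1* (-0.0116 to 0.2317), *Col1a1* (-0.1694 to 0.0851), *Col4a2* (-0.1065 to 0.0896), *Col4a5* (-0.0895 to 0.0703), *Col4a6* (-0.2131 to 0.0955), *Col5a1* (-0.0862 to 0.1348), *Col5a2* (-0.1 to 0.0549) and *Col6a5* (-0.4297 to 0.1898) in the *Pax3* line. Counts were low for *Col10a1*, *Col4a3*, *Col4a4*, *Col6a4*, *Col6a5* and *Col28a1*, and none of these was called in either line. What difference could be detected at these counts was not tested.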
